A study of Mus musculus with 96 samples.

Results

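Glutathione S-transferases were followed in the liver through the transcripts of 10 genes, Gsta1, Gsta2, Gsta3 and Gsta4 of the alpha class, Gstm1, Gstm2 and Gstm3 of the mu class, Gstp1 of the pi class, and Gstt1 and Gstt2 of the theta class. The 10 genes were taken by symbol from a table of 21990 genes, of which 20155 have expression values, and all 10 have values. Male C57BL/6N mice, bought at 4 weeks of age, were fed a chow diet (CD, LabDiet 5001, 13.5% fat) or a high-fat diet (HFD, Research Diets D12492, 60% fat). At each of weeks 4, 8, 12, 16, 20 and 24 of feeding, liver and islets were taken from 4 mice per diet, which gives 48 mice and 96 libraries of bulk poly(A) RNA. The CD is a chow and not an ingredient-matched control diet, so that fat and the other ingredients cannot be told apart. Likewise, age, time on the diet and anything shared by the mice taken in 1 week cannot be told apart.

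Glutathione S-transferases join the tripeptide glutathione to electrophiles such as drug metabolites, carcinogens and aldehydes of lipid peroxidation, and the conjugates are then exported from the cell. The liver is rich in these enzymes, which belong mostly to the alpha, mu, pi and theta classes, and several of them are known targets of the stress-responsive transcription factor NRF2. In mice, the pi-class gene Gstp1 is strongly expressed in the liver of males, Gsta3 is known for conjugating the epoxide of aflatoxin B1, and Gsta4 for conjugating 4-hydroxynonenal.

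The members lie in clusters of related copies, and parts of their sequence recur in other genes. In GRCm38 coordinates of the deposited table, Gsta1 (chr9:78230669-78242683), Gsta2 (chr9:78331018-78355859) and Gsta4 (chr9:78191966-78209349) lie together on chromosome 9, and Gsta3 (chr1:21240585-21265575) lies apart. The mu genes are on chromosome 3, where the model of Gstm1 (chr3:107963696-108017973) spans those of Gstm2 (chr3:107981702-107986436) and Gstm3 (chr3:107963696-107969174). Gstp1 (chr19:4035411-4037912) lies inside the model of its neighbor Gstp2 (chr19:4035411-4042453), and Gstt1 (chr10:75783813-75798584) and Gstt2 (chr10:75831842-75837419) share chromosome 10. In the GENCODE vM21 transcripts, 90.5% of the 50-base windows of Gsta1 also occur in another gene, 75.7% in Gm3776 and 46.6% in Gsta2. The share was 49.8% for Gsta2, 33.7% for Gstp1, with all shared windows found in Gstp2, 28.8% for Gstm3, 18.9% for Gstm1 and 5.65% for Gstm2, and it was below 1% for Gsta3, Gsta4, Gstt1 and Gstt2. Reads from these windows cannot be assigned to one copy by sequence alone, so the split between Gsta1, Gsta2 and Gm3776, and between Gstp1 and Gstp2, is uncertain. A further copy, Gm10639, holds 31.3% of the windows of Gsta1 and 31.8% of those of Gsta2, and it was listed at 0 in 46 of 48 livers and at 0.08 FPKM or less in the others.

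The resemblance of Gsta1 and Gsta2 extends to the bases before their RefSeq starts. These bases are shown because, in the mean of the 6 weeks, Gsta1 was higher and Gsta2 lower in HFD livers. At week 4 both genes were lower in HFD. The 250 bases upstream are from RefSeq (GRCm38.p6), in the direction of the gene. They lie at chr9:78230419-78230668 (plus strand) for Gsta1 and chr9:78347146-78347395 (minus strand) for Gsta2. The deposited model of Gsta2 runs to 78355859 on the minus strand, so that the printed stretch lies inside it and not before its start. Capitals mark runs of at least 12 bases that occur in both, 68 of 250 bases in each.
Gsta1: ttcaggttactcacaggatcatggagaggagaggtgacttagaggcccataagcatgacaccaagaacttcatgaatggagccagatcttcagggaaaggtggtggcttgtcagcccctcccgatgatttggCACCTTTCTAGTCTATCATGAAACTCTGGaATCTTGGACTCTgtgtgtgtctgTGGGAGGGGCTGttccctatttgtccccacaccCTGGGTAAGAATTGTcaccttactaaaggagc
Gsta2: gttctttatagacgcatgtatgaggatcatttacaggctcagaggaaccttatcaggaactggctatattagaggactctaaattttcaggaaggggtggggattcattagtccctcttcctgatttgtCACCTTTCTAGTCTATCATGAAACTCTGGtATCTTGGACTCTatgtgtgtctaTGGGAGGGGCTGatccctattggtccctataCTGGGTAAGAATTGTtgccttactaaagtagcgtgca

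The 250 bases upstream of Gstp1, at chr19:4037913-4038162 (minus strand), are shown as those of the member with the most transcripts. Capitals mark matches to TGAGNNNGC on either strand, a form of the antioxidant response element core.
Gstp1: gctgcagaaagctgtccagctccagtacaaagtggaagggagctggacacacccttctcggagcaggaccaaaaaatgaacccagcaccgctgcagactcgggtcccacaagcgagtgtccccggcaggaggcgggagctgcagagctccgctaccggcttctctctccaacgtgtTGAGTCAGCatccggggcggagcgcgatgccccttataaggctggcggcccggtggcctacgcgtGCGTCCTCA
This form was found in 14.4% of 32851 mouse promoter windows of the same length, and among the 8 members with a RefSeq promoter it was found in Gstp1 and Gstt1. The other form of the core, TGACNNNGC, was found in 10.2% of windows and among the members only in Gsta3. Matches of letters are descriptions and not binding sites. Gsta4 and Gstt2 were not in the promoter table.

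Levels were deposited as FPKM, fragment numbers scaled to transcript length and to sequencing depth, and the depth of single libraries is unknown. Livers summed to between 560016 and 672369 FPKM and had between 9347 and 10570 genes at 1 FPKM or more. Alb, the gene of serum albumin, had at least 16730 FPKM in every liver. Some livers also held islet transcripts. The insulin gene Ins2 was listed at 0 in 20 livers but reached 2467 FPKM in 1, and the sum of 6 beta cell genes was at least 300 FPKM in 4 livers, CD304 and CD306 of week 12, CD407 of week 16 and HFD617 of week 24. Its median was 30.8 FPKM over the CD livers and 0.355 FPKM over the HFD livers. Results for the affected weeks were therefore also computed without these 4 livers. In bulk tissue, fewer cells of a type and less RNA per cell cannot be told apart.

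Gstp1 was the most abundant member. Over the 24 CD livers, Gstp1 ranged from 945 to 8463 FPKM with a median of 3139 FPKM, and over the 24 HFD livers from 887 to 6119 FPKM with a median of 1809.7 FPKM. Gstm1 (medians of 891 in CD and 790.2 in HFD) and Gsta3 (medians of 773 in CD and 837 in HFD) followed, and their ranges over the CD livers overlapped. Gstt1, at 97.86 to 314.7 FPKM in CD, lay wholly below the CD range of Gsta3, which began at 402 FPKM. Below Gstt1, each neighbor in the order of mean CD levels overlapped the next: Gstt2, Gstm2, Gsta4, Gsta2, Gstm3 and Gsta1. Gsta1 was the least abundant, with a median of 1.025 FPKM in CD and 5.465 FPKM in HFD livers, and it was listed at 0 in 1 HFD liver.

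**Figure D1:**
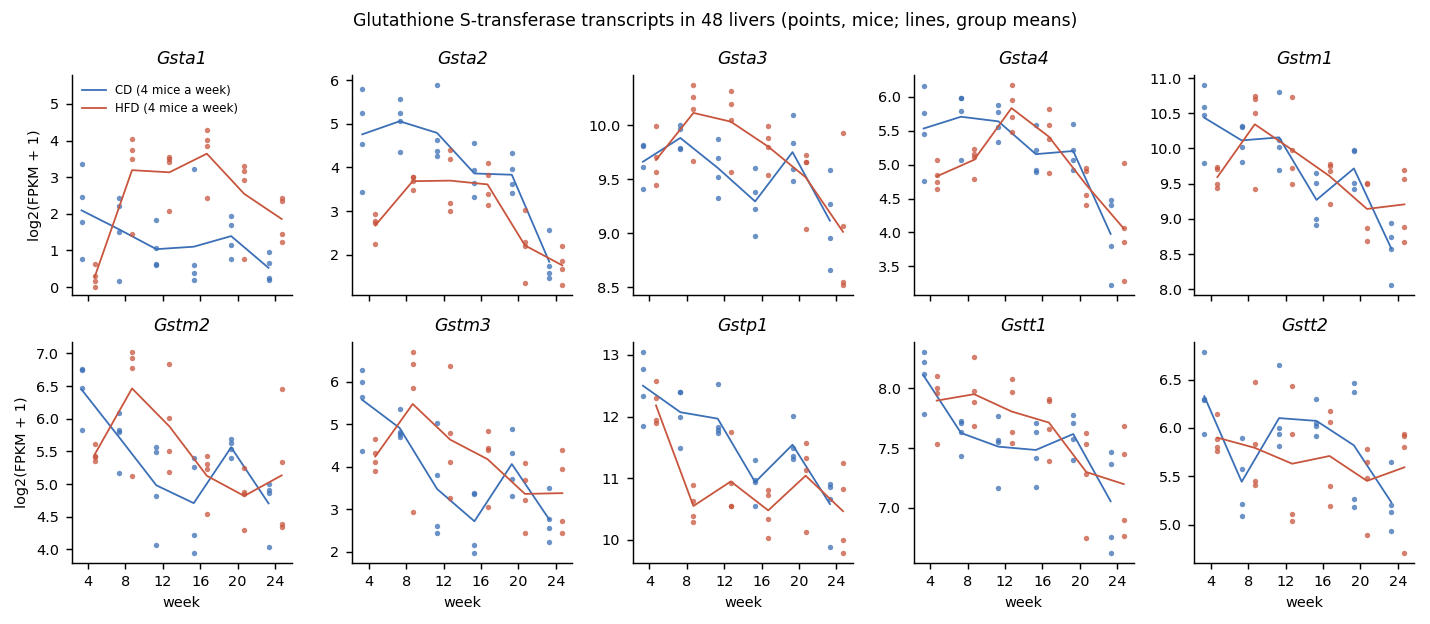
Each panel plots log2(FPKM + 1) of 1 gene against the week of feeding, with 1 point per liver (4 CD in blue and 4 HFD in red at each week) and lines through the group means. In CD livers all 10 genes stand lower at week 24 than at week 4, Gsta1 stands higher in HFD from week 8 on, and Gstp1 stands lower in HFD at week 8.

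The question of how levels varied along the course was first asked in the CD livers, which are the background of every diet comparison. All tests were made with limma on log2(FPKM + 1), in which a difference of a gene of few FPKM is smaller than its ratio of FPKM, with p-values adjusted by the Benjamini-Hochberg method over all genes tested. Gstp1 had 3674, 8463, 7009 and 5183 FPKM in the 4 CD livers of week 4 and 1853, 1623, 1927 and 945 FPKM in those of week 24. Gsta2 had 9.78, 22.36, 37.04 and 54.93 FPKM at week 4 and 2.33, 1.98, 1.78 and 4.98 FPKM at week 24. For both genes, every CD liver of week 24 lay below every CD liver of week 4. The share of all genes that lay apart in this way is not given here.

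Of the 10 genes, 9 varied with the week in CD livers, all but Gsta1 (adjusted p = 0.26; the others had an adjusted p between 8.1e-07 for Gsta2 and 0.023 for Gsta3), where 55.0% of all 10879 genes tested did. In HFD livers 9 varied too, all but Gstt2 (adjusted p = 0.78), against 50.2% of all genes. The difference between week 24 and week 4, examined after the data had been seen, was negative and passed the test for 10 of 10 genes in CD livers, where 14.8% of all genes fell. It was -2.92 (standard error 0.40) for Gsta2, -2.81 (standard error 0.65) for Gstm3, -1.92 (standard error 0.31) for Gstp1, -1.86 (standard error 0.28) for Gstm1 and -0.55 (standard error 0.22) for Gsta3 on the log2 scale. The median was -1.66 over the 10 genes and 0.09 over all genes. All 10 stayed negative under median ratio scaling and without any one mouse of these weeks, while the number that passed was 8 to 10 and was 9 without the 4 livers with islet transcripts, where Gsta3 had an adjusted p of 0.050. In HFD livers, 4 of 10 fell, against 10.6% of all genes: Gstp1 by 1.72, Gsta4 by 0.77, Gstt1 by 0.70 and Gsta3 by 0.66. This number was 1 without HFD611, 2 without HFD114, HFD118 or HFD616, and 3 or 4 without any other mouse of these weeks. For the fits without 1 mouse, the shares of all genes are not given here. Gsta1 was the only member with a positive difference in HFD livers, 1.59 (standard error 0.62, adjusted p = 0.058). The course was not a steady decline, since the sum of the 10 genes averaged 3590.4 ± 521 FPKM (SD, n = 4) in CD livers at week 16 and 5139 ± 575 FPKM at week 20.

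Gsta1, an alpha-class gene that is inducible in mouse liver, was at lower levels in HFD than in CD livers at week 4 and at higher mean levels in each later week. At week 4 it had 0.71, 2.45, 4.50 and 9.26 FPKM in CD livers and 0.00, 0.13, 0.54 and 0.23 FPKM in HFD livers, so that every HFD liver was below every CD liver, as in 2.03% of all genes tested. With 3 livers at 1 FPKM or more, it was below the filter of that week and was not tested there. In one fit of all 48 livers its difference at week 4 was -1.82 (standard error 0.62, adjusted p = 0.11). At week 8 the HFD livers had 12.42, 15.60, 10.36 and 1.75 FPKM against 0.12, 4.43, 1.83 and 3.62 FPKM in CD, with HFD217 alone inside the CD range. At week 12 the HFD livers had 10.36, 9.56, 3.19 and 10.78 FPKM and the CD livers 0.53, 1.09, 0.55 and 2.57 FPKM, and the groups did not overlap. At that week 14.6% of all genes lay apart with HFD above CD.

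At week 16 Gsta1 had 4.36, 13.39, 18.47 and 15.15 FPKM in HFD and 0.53, 0.15, 8.32 and 0.30 FPKM in CD, where CD405 alone was within the HFD range. At week 20 it had 6.57, 8.04, 8.95 and 0.70 FPKM in HFD and 0.70, 1.24, 2.83 and 2.26 FPKM in CD, and HFD518 equaled the lowest CD liver. At week 24 the HFD livers, at 1.72, 1.35, 4.07 and 4.36 FPKM, were all above the CD livers, at 0.96, 0.20, 0.15 and 0.59 FPKM, as in 8.14% of all genes. No CD liver of week 24 and only CD405 at week 16 reached 1 FPKM, so that the gene passed the filter of these weeks only through the HFD group. Its differences there, 2.54 at week 16 and 1.33 at week 24, are given as descriptions. Of the other weekly tests, that of week 12 passed, with a difference (HFD minus CD) of 2.10 (standard error 0.40, adjusted p = 0.022), where 9.42% of all genes were higher. At that week 2 of the 4 CD livers reached 1 FPKM, and without the filter the adjusted p was 0.028. Week 8 had a difference of 1.61 (adjusted p = 0.21) and week 20 of 1.15 (adjusted p = 0.41).

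The test of week 12 missed the threshold without CD304 and CD306, the livers with islet transcripts (1.90, adjusted p = 0.073), and without any one of CD306, CD307, HFD313, HFD315 and HFD318 (adjusted p between 0.051 and 0.075). Without HFD217, Gsta1 passed at week 8 (2.19, adjusted p = 0.041), and without HFD518 at week 20 (1.74, adjusted p = 0.013). Here and below, leaving out the liver that lies most against a difference enlarges that difference. Such a pass shows the weight of 1 liver and is no support for the difference. In one fit of all 48 livers, Gsta1 was the single member for which the diet difference varied with the week (adjusted p = 0.028), where 1.46% of all genes did. Compared with week 4, the difference of week 16 was higher by 4.36 (standard error 0.87, adjusted p = 0.0053), that of week 12 by 3.92 (adjusted p = 0.013) and that of week 8 by 3.43 (adjusted p = 0.030). Those of weeks 20 and 24 were higher by 2.97 and 3.15 and did not pass (adjusted p = 0.098 and 0.078). No HFD liver of week 4 and no CD liver of week 24 reached 1 FPKM, and 1 of the 4 CD livers of week 16 did. All of these differences against week 4 rest on values near the floor and are read as descriptions. The call of the diet by week test also rests on single livers. The number of members that passed it was 0 without the 4 livers with islet transcripts, where Gsta1 had an adjusted p of 0.052. It was also 0 without any one of CD103, CD104, CD106, HFD112, HFD113 and HFD118, all of week 4. It was 2 without CD101 and 3 without HFD217. The shares of all genes in these fits are not given here.

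Gsta2, the close relative of Gsta1, was lower in HFD livers at weeks 8 and 20. At week 4 it had 9.78, 22.36, 37.04 and 54.93 FPKM in CD livers and 5.62, 3.77, 6.65 and 5.86 FPKM in HFD livers. At week 8 it had 19.29, 46.40, 32.52 and 37.18 FPKM in CD and 12.80, 10.24, 12.77 and 11.85 FPKM in HFD. At week 20 it had 19.25, 14.52, 9.74 and 11.23 FPKM in CD and 3.89, 7.12, 3.58 and 1.56 FPKM in HFD. In each of these 3 weeks all HFD livers lay below all CD livers, as did 2.03% of all genes at the first of them, 3.69% at the second and 2.51% at the third.

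The difference of Gsta2 at week 4 was -2.08 (standard error 0.44, adjusted p = 0.11). It fell at week 8, by 1.37 (standard error 0.23, adjusted p = 0.011), where 1.33% of all genes were lower, and at week 20, by 1.62 (standard error 0.34, adjusted p = 0.045), where 0.746% were. Without CD101, the lowest CD liver of week 4, it passed at that week too (-2.53, adjusted p = 0.023), and likewise in the fit of all 48 livers (adjusted p = 0.0049). The call of week 20 was lost with a pseudocount of 0.1, without the filter, and without any one of CD501, CD502, CD505, CD507, HFD511 and HFD517 (adjusted p between 0.057 and 0.13). At weeks 12, 16 and 24 the groups overlapped, with differences of -1.09, -0.25 and -0.08, and at week 24 both groups were low, at 2.77 ± 1.49 FPKM (SD, n = 4) in CD and 2.47 ± 0.88 FPKM in HFD.

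Set against each other, Gsta1 made up a different part of the pair in the 2 diets. In CD livers Gsta1 was 10.5% ± 3.15 (SD, n = 4) of the summed FPKM of Gsta1 and Gsta2 at week 4, 5.88% ± 3.87 at week 8 and 3.63% ± 1.34 at week 12. In HFD livers it was 3.66% ± 3.07 at week 4, 41.8% ± 20.4 at week 8 and 39.4% ± 10.3 at week 12. From week 16 to 24 the group means were between 8.76% and 14.2% in CD and between 50.2% and 54.6% in HFD, and from week 8 on no HFD liver lay within the CD range of its week. These shares depend on how reads of the common windows were divided. Gm3776, which shares the most windows with Gsta1, had 0.29 ± 0.22 FPKM at week 4 and 9.82 ± 4.62 FPKM at week 16 in HFD, and 3.53 ± 2.72 and 1.90 ± 3.04 FPKM in CD. The sum of Gsta1, Gsta2 and Gm3776 joins the 3, but it is not free of that division. FPKM are scaled to transcript length, and the longest transcripts were 861 bases for Gsta1 and 1112 bases for Gsta2. Reads shared with Gm10639 could also be divided otherwise. This sum was 38.8 ± 25.7 FPKM in CD and 5.99 ± 1.48 FPKM in HFD at week 4, 38.6 ± 14.3 and 30.3 ± 10.7 FPKM at week 8, and 3.49 ± 1.70 and 7.48 ± 3.33 FPKM at week 24.

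**Figure D2:**
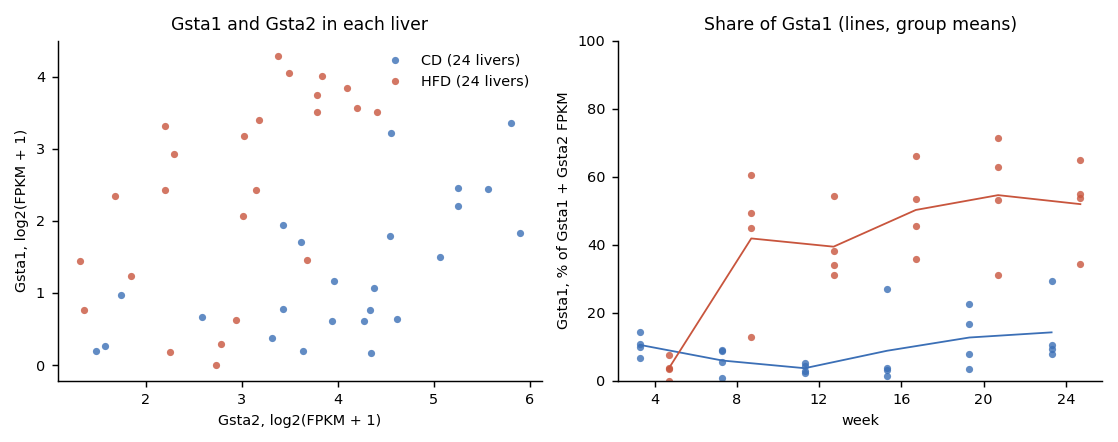
The left panel plots log2(FPKM + 1) of Gsta1 against Gsta2 in each of 24 CD (blue) and 24 HFD (red) livers, and the right panel plots Gsta1 as a percentage of the summed FPKM of both against the week, with lines through the means of 4 livers. From week 8 on the HFD means are between 39.4% and 54.6% and the CD means between 3.63% and 14.2%.

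Gsta3 and Gsta4 differed less. At week 16 the CD livers had 775.6, 594.6, 663.9 and 502.7 FPKM of Gsta3 and the HFD livers 741, 1018, 939 and 888 FPKM, so that HFD411 alone was below the highest CD liver. With means of 634 ± 115 and 896 ± 116 FPKM (SD, n = 4), Gsta3 differed by 0.51 (standard error 0.15), which missed the threshold (adjusted p = 0.068). No weekly test of Gsta3 passed in the full data, although it passed without HFD217 at week 8, without HFD316 at week 12, and without CD401 or HFD411 at week 16. For Gsta4, the CD livers of week 8 had 32.67, 62.26, 54.20 and 62.08 FPKM and the HFD livers 33.54, 26.62, 34.50 and 36.67 FPKM, a difference of -0.63 (standard error 0.20, adjusted p = 0.10). Its test at week 8 passed without CD203 (-0.85, adjusted p = 0.011), the only CD liver of that week within the HFD range. At week 4, where the difference was -0.71 (adjusted p = 0.32), Gsta4 was at 26.15, 42.58, 53.19 and 70.50 FPKM in CD livers and at 23.88, 27.84, 32.71 and 25.75 FPKM in HFD livers, and CD101 was again the lowest CD liver. Over the weeks, the highest group means were 56.9 ± 12.0 FPKM for HFD at week 12 and the lowest 15.7 ± 6.11 FPKM for CD at week 24.

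The mu-class genes Gstm1, Gstm2 and Gstm3 moved alike from liver to liver. At week 4, Gstm1 had 884, 1533, 1921 and 1416 FPKM in CD livers and 851, 694, 717 and 836 FPKM in HFD livers. Gstm2 had 55.78, 87.69, 105.8 and 106.9 FPKM in CD and 48.00, 42.16, 41.47 and 39.81 FPKM in HFD. Both genes thus had all HFD livers below all CD livers at that week, as did 2.03% of all genes, with CD101 lowest among the CD livers for each. Gstm3 had 19.57, 76.42, 62.97 and 48.84 FPKM in CD and 13.79, 23.93, 19.05 and 16.12 FPKM in HFD, and CD101 was within the HFD range.

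None of these differences passed at week 4: -0.84 for Gstm1 (adjusted p = 0.18), -0.996 for Gstm2 (adjusted p = 0.092) and -1.33 for Gstm3 (adjusted p = 0.21). Without CD101 all 3 passed, at -1.06, -1.20 and -1.73 (adjusted p = 0.025, 0.014 and 0.025). At week 8, 3 of the 4 HFD livers were above all CD livers for each of the 3 genes. Gstm2 had 128.8, 108.2 and 121.5 FPKM in HFD211, HFD212 and HFD213, 33.99 FPKM in HFD217, and between 35.11 and 66.74 FPKM in CD. Gstm3 had 102.5, 83.66 and 56.91 FPKM in the same 3 HFD livers, 6.66 FPKM in HFD217, and between 24.98 and 40.06 FPKM in CD. HFD217 was the lowest of the 8 livers for both genes, and with 684 FPKM for Gstm1 as well.

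With HFD217 the differences of week 8 were 0.23 for Gstm1, 0.74 for Gstm2 and 0.56 for Gstm3 (adjusted p = 0.68, 0.35 and 0.71). Without it they were 0.54, 1.19 and 1.41 and passed (adjusted p = 0.048, 0.00737 and 0.0068). Since HFD217 was the lowest liver for each gene, leaving it out had to raise the differences. These passes are therefore no support for them. At week 20 the CD livers had 50.65, 41.04, 45.42 and 48.44 FPKM of Gstm2 and the HFD livers 36.89, 27.79, 18.67 and 28.50 FPKM. The groups did not overlap, as in 2.51% of all genes with HFD below CD. The difference was -0.74 (standard error 0.18, adjusted p = 0.059), and it passed without HFD511 (-0.89, adjusted p = 0.023). At week 16, Gstm3 was at 9.38, 3.44, 9.18 and 2.94 FPKM in CD livers and at 7.24, 20.63, 19.95 and 27.41 FPKM in HFD livers, with HFD411 alone in the CD range. Its difference there was 1.46 (standard error 0.49, adjusted p = 0.13), and without HFD411 it passed at 1.84 (adjusted p = 0.022). The F test of the diet by week missed the threshold for all 3 genes (adjusted p = 0.12 for Gstm1, 0.14 for Gstm2 and 0.27 for Gstm3).

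Gstp1, the most abundant member, had 2874, 4081, 5398 and 5416 FPKM in CD livers and 1592, 1334, 1247 and 1897 FPKM in HFD livers at week 8. All HFD livers were below all CD livers, as in 3.69% of all genes, and the mean was 2.93-fold lower in HFD. The difference was -1.52 (standard error 0.22, adjusted p = 0.0067) on the log2 scale, where 1.33% of all genes were lower by the test. At week 12 it had 3405, 3636, 5898 and 3511 FPKM in CD and 1502, 1945, 3460 and 1502 FPKM in HFD, where HFD316 alone reached the CD range. Its difference there was -1.02 (standard error 0.29, adjusted p = 0.056), and it passed without HFD316 (-1.29, adjusted p = 0.011) and in the fit of all 48 livers (adjusted p = 0.025). In the other weeks the groups overlapped, with differences between -0.50 at week 20 and -0.12 at week 24. Gstp1 made up 63.4% of the summed FPKM of the 10 genes in CD and 34.4% in HFD at week 8, and 56.7% and 50.6% at week 24. The neighbor Gstp2, whose model contains Gstp1, was lower in HFD as well in the mean of the weeks.

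The theta-class genes showed no weekly difference past the threshold. Gstt1, which acts on small halogenated compounds, was at 197.9, 208.1, 210.4 and 172.4 FPKM in CD livers and at 235, 250.3, 306.7 and 204.2 FPKM in HFD livers of week 8, where HFD217 was the only HFD liver within the CD range. This was its largest positive difference, 0.32 (standard error 0.13, adjusted p = 0.17), and the largest negative one was -0.32 at week 20. Gstt2 had its largest negative difference at week 12, -0.47 (standard error 0.33, adjusted p = 0.36), with 55.24, 63.16, 60.30 and 99.72 FPKM in CD livers and 85.35, 33.56, 31.92 and 60.32 FPKM in HFD livers, groups that overlapped widely. The 95% interval of the mean difference over the weeks was -0.08 to 0.24 for Gstt1 and -0.41 to 0.10 for Gstt2.

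Counted by week, no member of 9 tested passed at week 4, where 0.0506% of all genes tested did. Of 10 tested, 2 passed at week 8 (7.49% of all genes), 1 at week 12 (10.6%), none at week 16 (7.43%), 1 at week 20 (2.47%) and none at week 24 (0.837%). In the weeks without a call by limma, unadjusted p-values below 0.05 were found for 6, 4 and 2 members. Variances without a trend and without robust fitting gave 0, 1 and 0 members in these weeks, and the fit of all 48 livers gave 1, 1 and 0. The 1 of week 16 was Gsta1 in both, and without Gsta1 the unadjusted numbers of weeks 16 and 24 were 3 and 1. No share of all genes is given here beside the unadjusted numbers or those of the 2 alternatives. They therefore cannot be read as particular to the members. At week 4, 8 of the 9 members tested had a negative difference, with a median of -0.71, and the median over all genes was 0.09. At week 20, 9 of 10 were negative, with medians of -0.50 and 0.07.

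**Figure D3:**
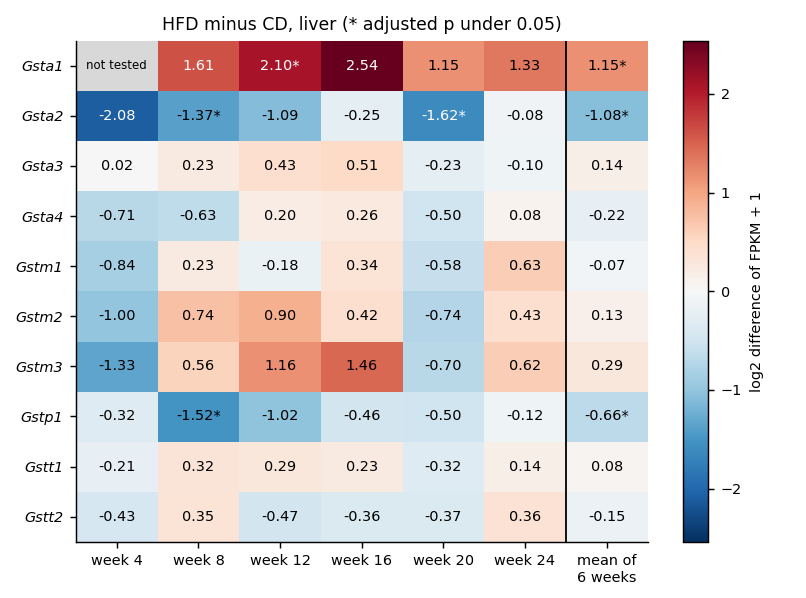
Colors and numbers give the log2 difference of FPKM + 1, HFD minus CD, for each gene (rows) and week (columns, 4 against 4 livers), with the mean of the 6 weeks at the right and asterisks for an adjusted p under 0.05 by limma. Gsta1 is positive from week 8 to 24, Gsta2 and Gstp1 are negative in every week, and the mu genes are negative at weeks 4 and 20.

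Averaged over the 6 weeks, 3 of the 10 genes differed between the diets, 1 higher and 2 lower, where 42.6% of all genes did, 35.8% higher and 6.78% lower. Among the genes that passed, 84.1% were higher, and 45.1% were with median ratio scaling. Gsta1 was higher in HFD by 1.15 (standard error 0.25, adjusted p = 0.00033), Gsta2 lower, at -1.08 (standard error 0.16, adjusted p = 1.3e-06), and Gstp1 lower, at -0.66 (standard error 0.13, adjusted p = 7.3e-05). The other 7 had means between -0.22 for Gsta4 and 0.295 for Gstm3, and Gsta4 passed without the 4 livers with islet transcripts (-0.28, adjusted p = 0.044) and with median ratio scaling (-0.33, adjusted p = 0.017). The median of the 10 was 0.01, against 0.08 over all genes. Without HFD617 alone, Gsta4 passed too (-0.27, adjusted p = 0.034). The calls of Gsta1, Gsta2 and Gstp1 were kept without the 4 livers, at 1.05, -1.22 and -0.71.

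Markers of other liver cells and of liver zones moved with the diet as well. Of all genes, 35.8% were higher and 6.78% lower in this mean of 6 weeks. The counts of markers with median ratio scaling are not given here. Of 7 macrophage genes, 6 rose in the mean of 6 weeks, and their summed level had a median of 91.2 FPKM (46.5 to 164) in CD and 129 FPKM (61.9 to 275) in HFD livers. All 6 stellate and fibroblast genes rose, with sums of 61.7 FPKM (28.1 to 92.5) and 94.2 FPKM (50.9 to 143). Of 6 periportal hepatocyte genes, 5 fell, with sums of 2499 FPKM (1679 to 3721) and 1979 FPKM (1409 to 2654), whereas of 7 pericentral genes 1 rose and 2 fell. Of 8 hepatocyte genes with values, 2 fell, and of 5 endothelial genes 1 rose. The sum of 6 bile duct genes had medians of 26.79 FPKM in CD and 35.62 FPKM in HFD livers. Most of it was Spp1, with a median of 25.23 FPKM over all livers. Medians of Krt19, Krt7, Epcam, Sox9 and Cftr were between 0.01 and 1.115 FPKM. The sum of 4 lymphocyte genes had medians of 1.985 FPKM in CD and 1.97 FPKM in HFD livers. No marker gene of the macrophage, stellate or periportal lists was at 0 in any liver. The part of these shifts in the members' differences was not tested.

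Other genes of glutathione chemistry, taken from lists set by pathway, give the setting. Of 17 other glutathione transferases, 12 were tested, and in the mean of 6 weeks 5 rose and 4 fell. Of all genes, 35.8% rose and 6.78% fell in that mean. Mgst3, a membrane-bound transferase, rose by 0.69 (standard error 0.13), Gstk1, of mitochondria and peroxisomes, by 0.35 (standard error 0.05), Gstcd by 0.17, Mgst1 by 0.16, and Gstz1, which acts in tyrosine breakdown, by 0.13. Gstp2 fell by 0.74 (standard error 0.18), Gstm6 by 0.44, Gstt3 by 0.38 and Gstm7 by 0.20. The counting of Gstp2 is uncertain for the same reason as that of Gstp1. With median ratio scaling, 3 rose and 5 fell, and Mgst1 (0.05) and Gstz1 (0.01) no longer passed. For this list and those below, the shares of all genes with that scaling are not given here.

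In glutathione synthesis, turnover and export, 17 of 20 genes were tested, and 8 rose and 1 fell. Again, 35.8% of all genes rose and 6.78% fell. Chac1, which breaks glutathione down, rose by 0.84 (standard error 0.17), Ggct, which acts on the products, by 0.59 (standard error 0.08), and the peroxidases Gpx3 by 0.48, Gpx4 by 0.46 and Gpx1 by 0.24. Gclc, the catalytic subunit of the rate-limiting enzyme of glutathione synthesis, rose by 0.46, Abcc3, an export pump, by 0.31, and Gss, the second enzyme of synthesis, by 0.15. Cth, which makes cysteine, fell by 0.41 (standard error 0.11). With median ratio scaling 5 rose and 2 fell, and Gpx1 (0.13), Abcc3 (0.20) and Gss (0.04) did not pass.

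Of 14 genes of NRF2 and other inducible detoxification, all tested, 6 rose and 1 fell, against 35.8% and 6.78% of all genes. Aldh3a2, a fatty aldehyde dehydrogenase, rose by 1.095 (standard error 0.12), Srxn1, the NRF2 target sulfiredoxin, by 0.70 (standard error 0.07), Hmox1, heme oxygenase, by 0.68, Cbr3 by 0.57, Nfe2l2, the gene of NRF2 itself, by 0.35 and Nqo1, a quinone reductase and NRF2 target, by 0.30. Ces2a, a carboxylesterase, fell by 1.21 (standard error 0.09). With median ratio scaling 5 rose and 2 fell, and Nqo1 did not pass (0.21). By week, the number of genes that passed was 0 in all 3 lists at week 4, where 0.0506% of all genes did. At week 8 it was 2 of 11 other transferases, 4 of 17 glutathione genes and 4 of 13 NRF2 and detoxification genes. Of all genes, 7.49% passed at that week. At week 24 the number was 1 of 12, 0 of 17 and 0 of 13, against 0.837% of all genes. The medians over the 6 weeks were 0.01 for the members, 0.07 for the other transferases, 0.13 for glutathione metabolism and 0.13 for NRF2 and detoxification, against 0.08 over all genes.

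**Figure D4:**
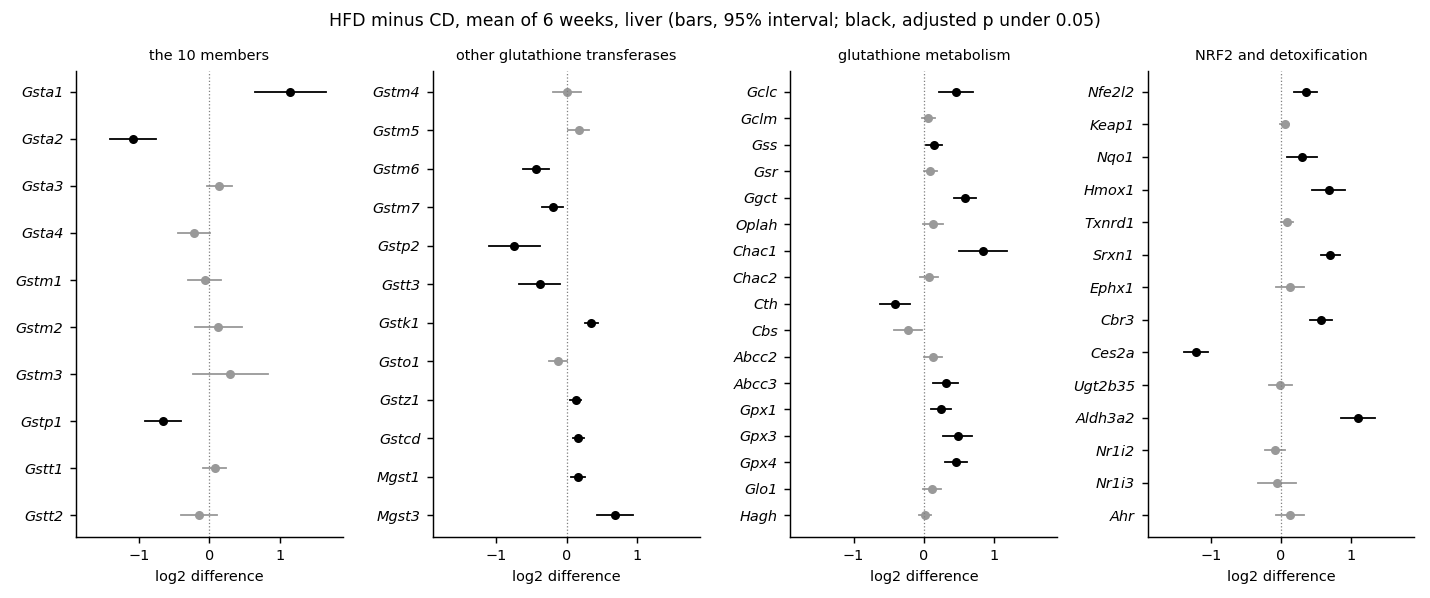
Points give the log2 difference of FPKM + 1, HFD minus CD, as the mean of 6 weeks over 24 and 24 livers, with 95% intervals, for the members and the 3 further lists. Black points passed at an adjusted p under 0.05 by limma: Gsta1 is the one member that was higher, and Srxn1 and Gclc were higher while Gstp2 was lower, with and without median ratio scaling.

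Within diet and week, most pairs of members varied together. After the mean of each group was subtracted, Pearson's r over the 48 livers was 0.82 between Gstm1 and Gstm3, 0.81 between Gstm2 and Gstm3, 0.80 between Gstm1 and Gstm2, and 0.64 between Gsta1 and Gsta2. Of 45 pairs, 37 had a positive r and 18 an r above 0.5, and the median was 0.39. Gstp1 was negatively correlated with several members, with r of -0.49 with Gsta3 and -0.43 with Gstm2. These are descriptions over livers that share a week. The alpha pair also shares sequence, with 46.6% of the windows of Gsta1 found in Gsta2. Of the windows of Gstm1, 8.16% occur in Gstm3 and 0.724% in Gstm2, and none was found in common between Gstm2 and Gstm3. Over all 48 livers, the genes outside the members and the 3 further lists most like Gsta1 were Gm3776 (Spearman's rho 0.96) and H2-Q1 (0.74). For the mu class they were Thnsl2 (0.77) and Cyp2d22 (0.77) for Gstm1, Tecr (0.77) and Thnsl2 (0.76) for Gstm2, and Thnsl2 (0.81) and Tkt (0.79) for Gstm3. For Gstp1 they were Mup7 (0.82), one of the major urinary protein genes, and Gapdh-ps15 (0.80), and for Gstt1 Uroc1 (0.86) and Ttr (0.85), a hepatocyte marker. They were Cryl1 (0.87) and Etnppl (0.86) for Gsta2, Pcbd1 (0.81) and Cers2 (0.77) for Gsta3, Ndufb5 (0.76) and Usmg5 (0.75) for Gsta4, and Smim19 (0.74) and Cisd1 (0.74) for Gstt2. The livers share diets and weeks, which enter these values.

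The same genes in the islets of the same mice served as a second tissue. Gsta1, Gsta2 and Gstm3 reached 1 FPKM in fewer than 4 of the 24 CD islet libraries and passed the filter only through liver, so that their differences between the tissues are descriptions. The other 7, at 1 FPKM or more in at least 6 CD islet libraries, were all higher in CD liver than in CD islets, where 28.5% of all genes were, and they were so in the paired fit with the mouse as a replicate block. Mean FPKM were 668-fold higher in liver for Gsta3, 195-fold for Gstm3, 48.6-fold for Gsta4, 41.9-fold for Gstp1 and 17.0-fold for Gstm1, but 7.71-fold for Gstt2, 7.27-fold for Gstt1 and 2.55-fold for Gstm2. These ratios depend on the makeup of each library. The 6 beta cell genes summed to a median of 662700 FPKM in CD islets. All genes together summed to between 892097 and 1278652 FPKM in the islet libraries. The part of this in the ratios was not tested. Gsta2 was listed at 0 in 22 of 24 CD islet libraries, and Gsta1 in 20. In islets, Gstp1 was again the most abundant member, at 58.16 to 161.3 FPKM in CD, with a median of 70.2 FPKM.

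**Figure D5:**
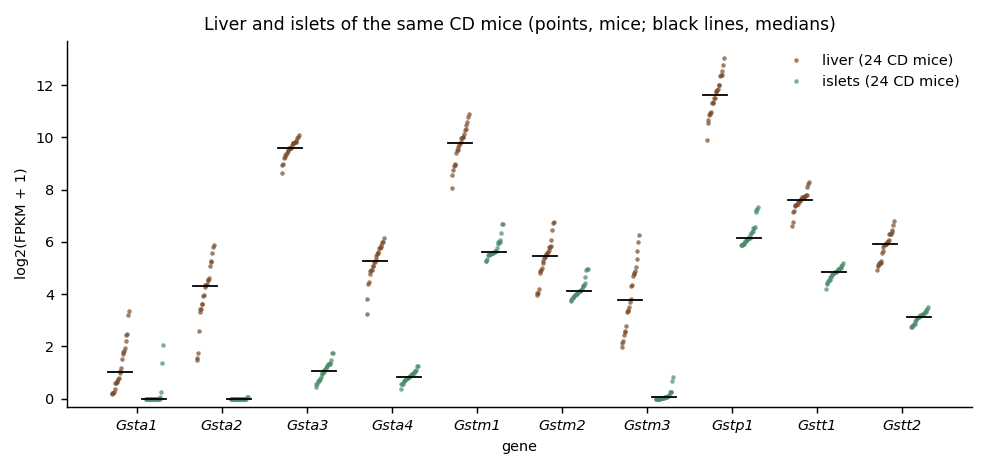
Points give log2(FPKM + 1) in each of 24 livers and 24 islet preparations from the same CD mice, and black lines mark the medians. On this scale the 2 tissues are closest for Gsta1 and Gstm2, with mean differences of 1.13 and 1.15, and farthest apart for Gsta3, with 8.49. Gsta1 was low in both tissues, at 0 FPKM in 20 of 24 CD islet libraries and with a median of 1.025 FPKM in CD livers. The 1 added to FPKM narrows its difference, and it passed the filter only through liver.

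Averaged over the 6 weeks, 6 of the 8 members tested in islets passed, all 6 lower in HFD, where 38.6% of all genes passed and 22.0% were lower. Among these 6, Gsta4 reached 1 FPKM in 6 of 24 CD but only 2 of 24 HFD islet libraries. It passed the filter only through the CD group, so its difference is a description. Gsta3 was also low, at 1 FPKM or more in 14 CD and 6 HFD libraries, with medians of 1.09 and 0.49 FPKM. The difference was -0.65 (standard error 0.07, adjusted p = 1.8e-10) for Gstm2, which had 12.51 to 30.42 FPKM in CD and 6.68 to 19.03 FPKM in HFD islets. It was -0.35 for Gstm1, -0.34 for Gsta3, -0.26 for Gsta4, -0.21 for Gstp1 and -0.21 for Gstt2. Gsta1 and Gstt1 did not pass (0.05 and 0.08), but Gstt1 passed as higher in HFD with median ratio scaling (0.11, adjusted p = 0.019) and without CD101 (0.09, adjusted p = 0.045). Gsta2 and Gstm3 were below the filter. All of these differences were smaller than 1 on the log2 scale. The CD islets of week 12 were set apart, with 139 to 161.3 FPKM of Gstp1 against 58.16 to 94.90 FPKM in the CD islets of the other weeks. They also held the most acinar transcripts, a summed level of 7 marker genes with a median of 46130 FPKM against medians between 7730 and 24300 FPKM in the other weeks. Without week 12, an alternative added after the data had been seen, 5 members were lower in HFD islets, among them Gstm2 at -0.58 and Gstp1 at -0.12, and Gsta4 missed the threshold (-0.24, adjusted p = 0.078). Over all weeks the acinar sum had a median of 14140 FPKM (3624 to 81920) in CD and 11590 FPKM (2736 to 32770) in HFD, with 2 of the 7 genes lower by the test. The sum of the 6 beta cell genes had a median of 662700 FPKM (574500 to 850900) in CD and 782000 FPKM (614700 to 991500) in HFD islets. A larger share of these genes lowers the FPKM of all others. The part of acinar transcripts in the islet differences was otherwise not tested, and that of the beta cell sum was not tested.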

How the data were processed

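Bulk poly(A) RNA of liver and islets of 48 mice had been sequenced on a BGISEQ-500 from random-primed libraries. The authors deposited FPKM per gene and mouse with 2 decimals. Their processing notes name HISAT2 2.0.4, Bowtie2 2.2.5, RSEM 1.1.12 and GRCm38.p5, and the roles of these are not given in the sources used here. The columns of group means and those of the authors' own comparisons (log2 ratios, p-values and q-values) were not used.

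The mice were grouped by diet and week from the sample labels. log2(FPKM + 1) was tested with limma 3.58.1 in R 4.3.3 with trend and robust variances, for genes at 1 FPKM or more in at least 4 libraries, at an adjusted p under 0.05 (Benjamini-Hochberg over all genes tested). Weekly tests used the 8 livers of a week. The mean of the 6 weekly differences, the diet by week F test, and the differences between weeks came from 1 fit of 48 libraries. Liver was compared with islets in 1 fit of 96 libraries. The scripts were tested on simulated data. Where a mouse is left out of a week, 1 library fewer must reach 1 FPKM.

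Every member is described. Examples from the other lists are those that passed, and the genes most like a member are those with the highest Spearman's rho over 48 livers outside the members and the 3 further lists (lists of cell type markers were not left out). The members and lists were chosen with earlier results of these data known. Other settings tried were a pseudocount of 0.1, no filter, median ratio scaling, other variances, the mouse as a block, each mouse left out, and, added after the data had been seen, the 4 livers with islet transcripts or week 12 of the islets left out, and median ratio scaling for the other lists. Python 3.11.15 with pandas 2.3.3 was used for summaries. Pairs of libraries with identical values were not found.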

Additional observations from a re-analysis of the deposited data

Results flagged for a closer look

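Of 120 groups of 4 livers (10 genes, 12 groups), 10 held a liver whose gap to the next on the log2(FPKM + 1) scale was more than 0.829 of the range of its group, and chance alone gives about 1 in 20 groups. For Gsta1 these livers were CD405 at week 16 (8.32 FPKM, the highest of its group), HFD316 at week 12 (3.19 FPKM, the lowest) and HFD518 at week 20 (0.7 FPKM, the lowest). HFD217 was the lowest at week 8 for Gstm2 (33.99 FPKM), and HFD411 at week 16 for Gstm1 (593.91 FPKM). CD208 was the highest at week 8 for Gstm3 (40.06 FPKM), and CD606 the lowest at week 24 for Gstm2 (15.47 FPKM). HFD517 was the lowest at week 20 for Gsta3 (522.94 FPKM), CD307 the highest at week 12 for Gstp1 (5897.81 FPKM), and HFD611 the lowest at week 24 for Gstt2 (25.22 FPKM). What set these livers apart was not tested.

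The diet difference of Gsta1 varied between the weeks in the F test of limma (adjusted p = 0.0275), and no other of the 10 genes passed that test.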

How the results depend on the processing

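The numbers of members that passed in the comparison of the tissues and in the mean over the weeks kept their size under each alternative tried, within 1.5 times. The paired fit with the mouse as a replicate block, which pairs liver and islets of the same animal, gave 10 of 10 members higher in liver, as did the fit without it, 3 of which passed the filter only through liver. All 48 livers in one fit gave 1 member at week 4, 2 members at week 12 and 1 member at week 16, and variances without trend and robust fitting gave 2 members at week 12 and 1 member at week 16. A pseudocount of 0.1 or no filter gave 0 at week 20, and leaving out the 4 livers with islet transcripts gave 0 at week 12 and 0 in the diet by week test. Week 24 against week 4 alone gave 4 in HFD, and requiring also a log2 difference of 1 gave 0 in islets. Leaving out 1 mouse gave 0 to 5 at week 4, 2 to 7 at week 8, 0 to 3 at week 12, 0 to 3 at week 16, 0 to 2 at week 20, 0 to 1 at week 24, 3 to 4 in the mean and 0 to 3 in the diet by week test. The 5 were reached without CD101, the 7 without HFD217, the 3 at week 12 without HFD316 and at week 16 without HFD411, and the 2 at week 20 without HFD518. In some of these fits Gsta1 passed the filter only through the diet in which it was high, and without it the numbers were 4 without CD101, 2 at week 16 without HFD411, and 0 at week 24 without HFD614, at week 16 without CD405 and at week 12 without CD308. The 1 member of week 16 in the fit of all 48 livers and with the other variances was Gsta1 too. The cause was not tested, but each such fit has 1 liver fewer. Beside the numbers of these alternatives no share of all genes is given here. They therefore cannot be read as particular to the members.

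The sign of the difference turned for members near 0. Under median ratio scaling, Gsta3 at week 4 was -0.112 and Gstt1 in the mean was -0.0389. Without the livers with islet transcripts, Gsta4 at week 24 was -0.241 and Gstt1 -0.0193. Leaving out 1 mouse gave -0.0891 to 0.0924 for Gsta3 at week 4 and -0.43 to 0.0353 for Gstm1 at week 12. At week 24 it gave -0.23 to 0.16 for Gsta2, -0.41 to 0.061 for Gsta3, -0.24 to 0.34 for Gsta4, -0.0127 to 0.69 for Gstm2, -0.37 to 0.11 for Gstp1 and -0.0193 to 0.29 for Gstt1. Of single-gene values, 1525 kept sign and call, 22 gained a call, 11 lost it and 14 turned when 1 mouse was left out. Under the other alternatives 449 kept both, 8 gained a call, 4 lost it and 4 turned.

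Median ratio scaling moved the median difference of all genes from 0.09 to -0.01 at week 4, from 0.11 to -0.02 at week 12, from 0.09 to -0.03 at week 16 and from 0.08 to -0.02 in the mean. The share of higher genes among those that passed went from 84.1% to 45.1% in the mean, from 82.3% to 70.6% at week 8, from 88.6% to 51.4% at week 12, from 90.8% to 69.9% at week 16, from 43.1% to 59.7% in islets and from 30.0% to 48.4% between the tissues. With 4 livers a group and no read counts, differences of Gsta1 near 1 FPKM are the least precise.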
